A study of Mus musculus with 8 samples.

Results

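The genes described here encode dual-specificity MAP kinase phosphatases. They were chosen by gene symbol, as Dusp1, Dusp2, Dusp4, Dusp5, Dusp6, Dusp7, Dusp8, Dusp10, Dusp14 and Dusp16 in the platform annotation, and all 10 were found among the 19938 genes measured. Their RNA levels come from 8 arrays of the Affymetrix Mouse Gene ST 1.0 type, which carry probes for many exons of each gene. Hippocampal neurons of E17.5 embryos of the outbred ICR mouse strain were grown for 10 days and then given 50 µM bicuculline for 0, 30, 180 or 300 min, with 2 biological replicates at each time. Bicuculline is an antagonist of GABA-A receptors, and the loss of inhibition makes cultured neurons fire in bursts. All 4 groups share strain, age and drug, and only the time differs. The times were compared with 0 min and, for the later steps, with the time before. None of the 8 arrays is labelled as a vehicle-treated culture kept for the same time, so drug and elapsed time cannot be told apart.

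MAP kinases (ERK, JNK and p38) carry signals from membrane receptors and calcium entry to the nucleus, and they are active only while a threonine and a tyrosine of their activation loop are both phosphorylated. Dual-specificity MAP kinase phosphatases remove both phosphates and so switch the kinase off. Several of their genes are themselves induced by the kinases they inactivate, which makes them a classic negative feedback loop. By place and preference they fall into classes. Dusp1, Dusp2, Dusp4 and Dusp5 encode inducible phosphatases of the nucleus, Dusp6 and Dusp7 encode cytoplasmic phosphatases that prefer ERK, Dusp8, Dusp10 and Dusp16 encode phosphatases that prefer JNK and p38, and Dusp14 encodes a small atypical phosphatase that lacks the kinase-binding domain of the others.

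Values are log2 signals, so a difference of 1 is a 2-fold change. All 10 genes lay above the 95th percentile of olfactory receptor genes (4.47), taken as a mark of background, on all 8 arrays, although Dusp2 came close to it, with a lowest array at 4.50. Every gene but Dusp8 had 1 transcript cluster, the array's unit of measurement, and Dusp8 had 2. The labelled cell type was checked against its markers: all 10 neuron markers lay above the same percentile on every array, and their mean signal per array ran from 9.03 to 9.17. Markers of other cells were measured too. Above that percentile on every array were 7 of 8 astrocyte, 5 of 8 microglia, 5 of 7 oligodendrocyte lineage, 5 of 8 endothelial and mural and 5 of 6 fibroblast markers, with 1 of 5 for dividing cells. P2ry12, Pdgfra, Pecam1, Cdh5, Lum, Mki67 and Birc5 were never above it. No marker of any of these lists passed limma's test in any comparison. At an unadjusted p under 0.05 there were at most 2 per list and direction. Among 8 astrocyte markers 2 were higher at 30 min and 2 lower at 180 min. Among 10 neuron markers 2 were lower from 30 to 180 min. Of all genes, 5.11%, 12.8% and 10.5% were under that threshold in these comparisons, in either direction. Summed over a list on the linear scale, neuron markers were at 6764 to 7183 at 0 min and at 6342 to 6552 at 180 min. In an RNA sample of a whole culture, fewer cells of a type and less RNA per cell cannot be told apart.

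Of the set, 3 genes changed with time and in different ways. Dusp1 and Dusp6 rose within 30 min and were back near their starting signal at 180 min, whereas Dusp4 rose later and was highest at 300 min. By limma's F test over the 4 times, 3 of the 10 genes passed (adjusted p = 7.55e-05 for Dusp1, 0.00581 for Dusp4 and 0.00992 for Dusp6), against 0.813% of all genes. The other 7 had adjusted p between 0.232 for Dusp14 and 0.963 for Dusp16.

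**Figure D1:**
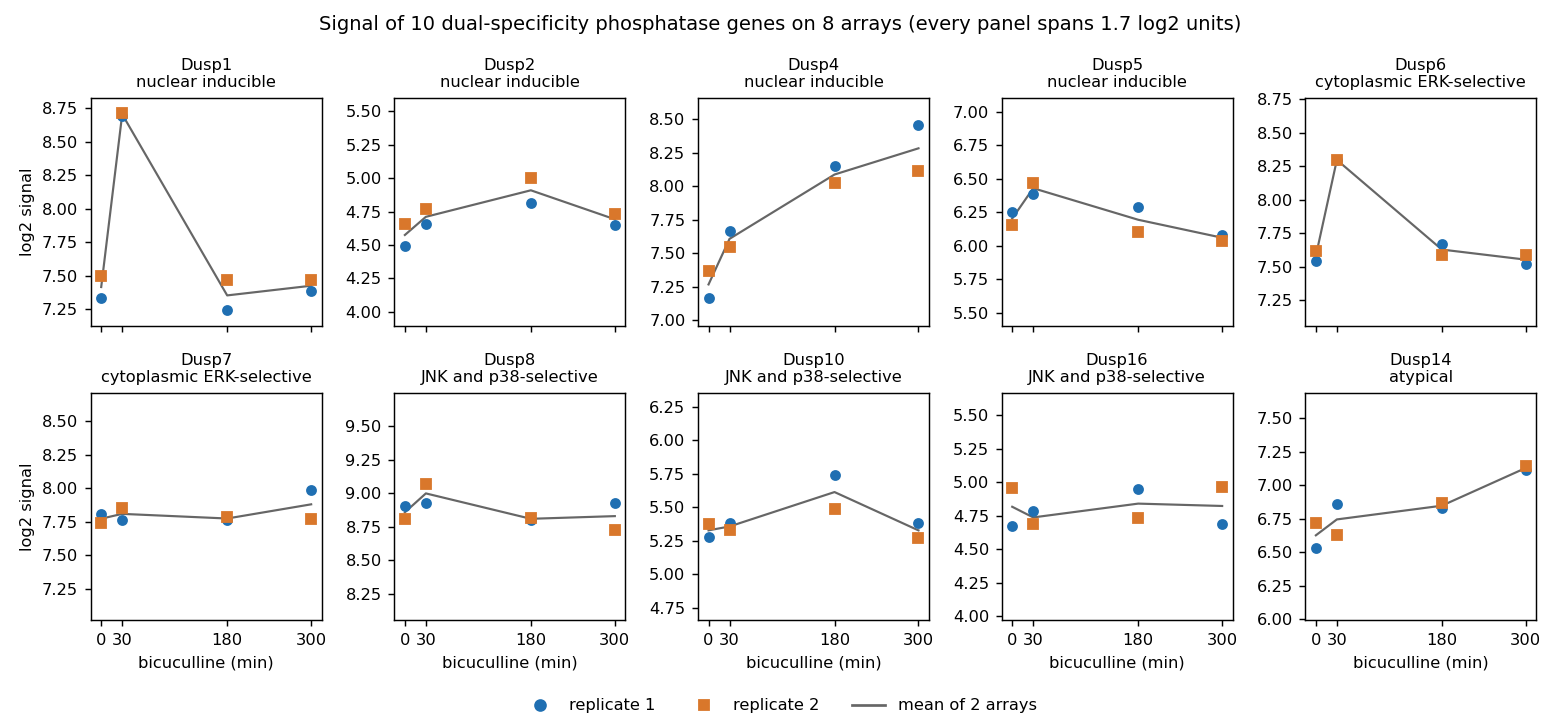
Log2 signal (vertical axis, every panel spanning the same height) of each of the 10 genes against minutes of bicuculline. Circles and squares are the arrays of replicate 1 and 2, and the line joins the means of the 2 arrays. Dusp1 and Dusp6 stand high at 30 min alone, at means of 8.70 and 8.30, and Dusp4 climbs from 7.27 to 8.28.

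Among the nuclear phosphatases, Dusp1 encodes the founding member of the family, which acts on JNK, p38 and ERK and is an immediate-early gene. Its signal was 7.33 and 7.49 at 0 min, 8.69 and 8.71 at 30 min, 7.24 and 7.46 at 180 min and 7.38 and 7.46 at 300 min. The 30 min arrays stood above all 6 others, which overlapped one another. The rise at 30 min was 2.45-fold (log2 change 1.29 ± 0.12 SE, limma adjusted p = 0.000127), the 12th largest increase among all genes. From 30 to 180 min the signal fell by 1.35 on the log2 scale (± 0.12 SE, 2.55-fold, limma adjusted p = 8.95e-05). What was left at 180 min was a log2 change of −0.06 from 0 min, with a 95% interval of −0.33 to 0.21, and at 300 min 0.01, with an interval of −0.26 to 0.28. Dusp1 passed in both comparisons under all 15 alternatives tried, with highest adjusted p of 0.0374 for the rise and 0.0303 for the fall.

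Dusp4 encodes a nuclear phosphatase of ERK and JNK. Its signal was 7.17 and 7.37 at 0 min, 7.67 and 7.55 at 30 min, 8.15 and 8.02 at 180 min and 8.45 and 8.11 at 300 min. The arrays of the first 3 times did not overlap, and those of 180 and 300 min did. The change from 0 min was 0.34 ± 0.14 SE at 30 min, which did not pass (adjusted p = 0.935), 0.82 ± 0.14 at 180 min (1.77-fold, limma adjusted p = 0.0262) and 1.02 ± 0.14 at 300 min (2.02-fold, limma adjusted p = 0.00452). The steps from 30 to 180 min (0.48, 95% interval 0.18 to 0.78, adjusted p = 0.196) and from 180 to 300 min (0.20, interval −0.10 to 0.49, adjusted p = 0.869) did not pass. With every row of the data tested, not only 1 per gene, the calls at 180 and 300 min both ended. The F test of Dusp4 did not pass there either (limma adjusted p = 0.211). With only the 2 times compared, the call at 180 min ended too. The call at 180 min ended without either 0 min, 30 min or 180 min array, with adjusted p between 0.0538 and 0.205 and changes between 0.72 and 0.92. The call at 300 min ended without 0 min replicate 1 (0.91, adjusted p = 0.0817) and without 300 min replicate 1 (0.85, adjusted p = 0.0744). Summed linear signals of 3 lists of other cell types were lower at 300 than at 0 min without overlap, at 662 to 771 against 780 to 842 for astrocyte, 244 to 260 against 268 to 290 for microglia and 458 to 507 against 539 to 675 for endothelial and mural markers. Those of fibroblast markers (734 to 791 against 743 to 853) and of dividing cells (134 to 151 against 148 to 153) overlapped, and those of the oligodendrocyte lineage (229.9 to 243.4 against 243.4 to 250.5) met at their ends. The median log2 change at 300 min was −0.15 for astrocyte, −0.09 for microglia and 0.05 for endothelial and mural markers. The lower sum of the endothelial and mural list thus rests on its brightest gene, Acta2, with means of 8.71 at 0 min and 8.20 at 300 min. The part of these cell types in the change of Dusp4 was not tested.

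Dusp2 and Dusp5, the other nuclear members, did not pass at any time. Dusp5, which encodes a phosphatase of nuclear ERK, had signals of 6.25 and 6.15 at 0 min, 6.39 and 6.47 at 30 min, 6.29 and 6.10 at 180 min and 6.08 and 6.04 at 300 min. Its highest mean fell at 30 min, as for Dusp1 and Dusp6, and the 30 min arrays stood above all 6 others, but the difference from 0 min was 0.23 ± 0.12 SE (95% interval −0.03 to 0.48, limma adjusted p = 0.961). Dusp2, which encodes a phosphatase best known from immune cells, had signals of 4.50 and 4.66 at 0 min, 4.66 and 4.77 at 30 min, 4.82 and 5.002 at 180 min and 4.65 and 4.74 at 300 min. Both of its 180 min arrays stood above the other 6, by a difference from 0 min of 0.33 ± 0.12 SE (limma adjusted p = 0.282). In this class Dusp1 was called higher at 30 min, where 0.0802% of all genes were, and Dusp4 at 180 and 300 min, where 0.211% and 0.226% were.

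In the cytoplasmic class, Dusp6 encodes a phosphatase that binds ERK and dephosphorylates it almost alone among MAP kinases. Its signal was 7.54 and 7.62 at 0 min, 8.29 and 8.30 at 30 min, 7.67 and 7.59 at 180 min and 7.52 and 7.58 at 300 min. The 30 min arrays stood apart from all others, which overlapped except that 300 min lay below 180 min. The rise at 30 min was 1.64-fold (log2 change 0.72 ± 0.12 SE, limma adjusted p = 0.024), and the fall from 30 to 180 min was 0.67 on the log2 scale (log2 change −0.67 ± 0.12 SE, limma adjusted p = 0.0186). At 180 min the change from 0 min was 0.05, with a 95% interval of −0.20 to 0.29, and at 300 min −0.03, with an interval of −0.28 to 0.22. The calls of the rise and of the fall both ended with every row of the data tested and with only the 2 times compared. With every row tested the F test of Dusp6 did not pass (limma adjusted p = 0.186). The rise was between 0.68 and 0.75 in every fit that left out 1 array, but its call ended without either 0 min or 30 min array (adjusted p between 0.203 and 0.319), and the call of the fall without either 30 min or 180 min array (0.0612 to 0.216). The F test of Dusp6 did not pass without 30 min replicate 1 (adjusted p = 0.164) or replicate 2 (0.142).

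Dusp7, the close relative of Dusp6 in the same class, did not pass in any comparison. Its arrays ran from 7.74 to 7.99, and the means of the 4 times from 7.77 to 7.88. The 30 min arrays overlapped the 0 min arrays. The change at 30 min was 0.04, and its 95% interval of −0.22 to 0.30 reached no further up than 1.23-fold, below the lower end of the interval of Dusp6 (1.38-fold). The difference between the 2 genes was not itself tested.

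Dusp8, Dusp10 and Dusp16, the class that acts on JNK and p38, held no gene that passed in any comparison. Dusp8, expressed mainly in brain and heart, had signals of 8.91 and 8.81 at 0 min, 8.92 and 9.07 at 30 min, 8.80 and 8.81 at 180 min and 8.93 and 8.73 at 300 min, and its changes from 0 min were 0.14, −0.05 and −0.03. Its second transcript cluster gave −0.08, −0.26 and −0.11, so the clusters disagreed in sign at 30 min. Dusp10, which encodes a phosphatase of p38 and JNK, had a mean of 5.61 at 180 min and means of 5.33 to 5.36 at the other times, and both 180 min arrays (5.74 and 5.49) stood above the other 6. The change of Dusp10 at 180 min was 0.29 ± 0.13 SE (limma adjusted p = 0.362). Dusp16 had time means between 4.74 and 4.84, a range of 0.10, while its 8 arrays spanned 0.29.

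Dusp14 encodes the atypical member, a small phosphatase reported to act on JNK, ERK and on adaptor proteins of immune signalling. Its signal was 6.53 and 6.72 at 0 min, 6.86 and 6.63 at 30 min, 6.83 and 6.87 at 180 min and 7.11 and 7.15 at 300 min. Both 300 min arrays stood above the other 6. The change at 300 min was 1.42-fold (log2 change 0.50 ± 0.13 SE, 95% interval 0.23 to 0.77), and it did not pass over all genes (limma adjusted p = 0.148, unadjusted 0.00127). It did not pass under any of its 15 alternatives, which gave adjusted p from 0.0849 to 0.555.

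**Figure D2:**
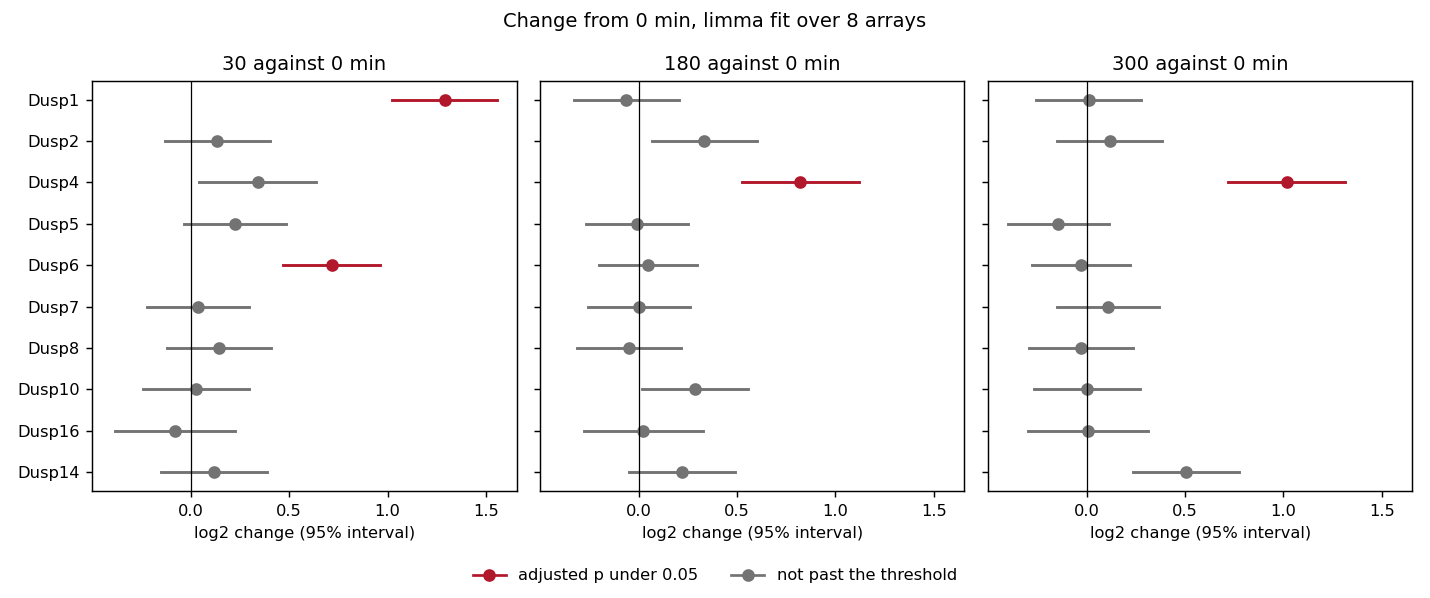
Log2 change from 0 min (horizontal axis) of each gene at 30, 180 and 300 min. Points are limma estimates over all 8 arrays and lines their unadjusted 95% intervals. Red marks an adjusted p under 0.05, reached by Dusp1 and Dusp6 at 30 min and by Dusp4 at 180 and 300 min.

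Counted over the set, 2 of the 10 genes were higher and 0 lower at 30 min (limma, adjusted p under 0.05), where 0.0953% of all genes were called, 0.0802% higher and 0.015% lower. At 180 min 1 was higher and 0 lower, against 0.331% of all genes called, 0.211% higher and 0.12% lower. At 300 min 1 was higher and 0 lower, against 0.286% called, 0.226% higher and 0.0602% lower. From 30 to 180 min 0 rose and 2 fell, against 0.502% called, 0.331% higher and 0.171% lower. From 180 to 300 min 0 passed by limma, as for all genes (0%), while at an unadjusted p under 0.05 Dusp14 was higher and Dusp10 lower, against 5.72% of all genes in either direction. At that unadjusted threshold 3 of the 10 genes were higher at 30 min, 3 at 180 min and 2 at 300 min and 0 were lower, against 5.11%, 12.8% and 8.96% of all genes in either direction. From 30 to 180 min 1 was higher and 2 were lower, against 10.5%. The median change of the 10 genes was 0.14 at 30 min, 0.04 at 180 min and 0.01 at 300 min, and that of all genes was within 0.01 of 0 each time. The arrays of 6 genes lay wholly above those of 0 min at 30 min, where 19.2% of all genes did, and 0 lay wholly below (18.3% of all genes). At 180 min 4 lay above (21.1%) and 0 below (22.6%), and at 300 min 2 lay above (18.8%) and 1 below (19.6%). From 30 to 180 min 3 lay above (18.2%) and 4 below (22.4%), and from 180 to 300 min 1 lay above (16.8%) and 4 below (16.4%).

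The genes most like Dusp1 over the 8 arrays were sought among the other 147 named genes that passed the F test. They were Arc (Pearson r = 0.992), which encodes a cytoskeletal protein of synapses, Egr2 (r = 0.986), a zinc finger transcription factor gene, and Ier2 (r = 0.985), an immediate-early gene. Those most like Dusp6 were Ier2 (r = 0.992), the antiproliferative gene Btg2 (r = 0.990) and Egr2 (r = 0.983). Dusp1 and Dusp6 correlated with each other at r = 0.977. All of these values rest on 8 arrays that share the 2 high arrays of 30 min, and they are given as descriptions. The 4 genes named here rose at 30 min by more or less than Dusp1: Arc 5.2-fold, Btg2 3.6-fold, Egr2 2.78-fold and Ier2 2.23-fold. Each was within 0.26 of its 0 min signal, on the log2 scale, at 180 and 300 min, and none of those differences passed.

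Dusp4 was most like Stk40 (r = 0.983), a kinase-like gene, Clba1 (r = 0.963) and Usp53 (r = 0.962), a gene of the deubiquitinase family. At 300 min these were 1.58-fold, 1.71-fold and 1.78-fold above 0 min (limma adjusted p = 0.0427, 0.016 and 0.046), and none passed at 180 min. The call of Stk40 ended without any 1 of the 8 arrays (adjusted p up to 0.318) and that of Usp53 without any but 300 min replicate 2 (up to 0.331). Both ended with each array centred on its median (0.0571 and 0.0615), with only the 2 times compared (0.0986 and 0.0708) and with every row of the table tested (0.408 and 0.470). With every row tested, the call of Clba1 ended too (limma adjusted p = 0.292). Clba1 lost its call without either 0 min array or 300 min replicate 1, with adjusted p up to 0.173. Between Dusp4 and the early pair the correlation was −0.30 with Dusp1 and −0.28 with Dusp6. Dusp14 correlated with Dusp4 at r = 0.864 and Dusp5 with Dusp6 at r = 0.855.

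**Figure D3:**
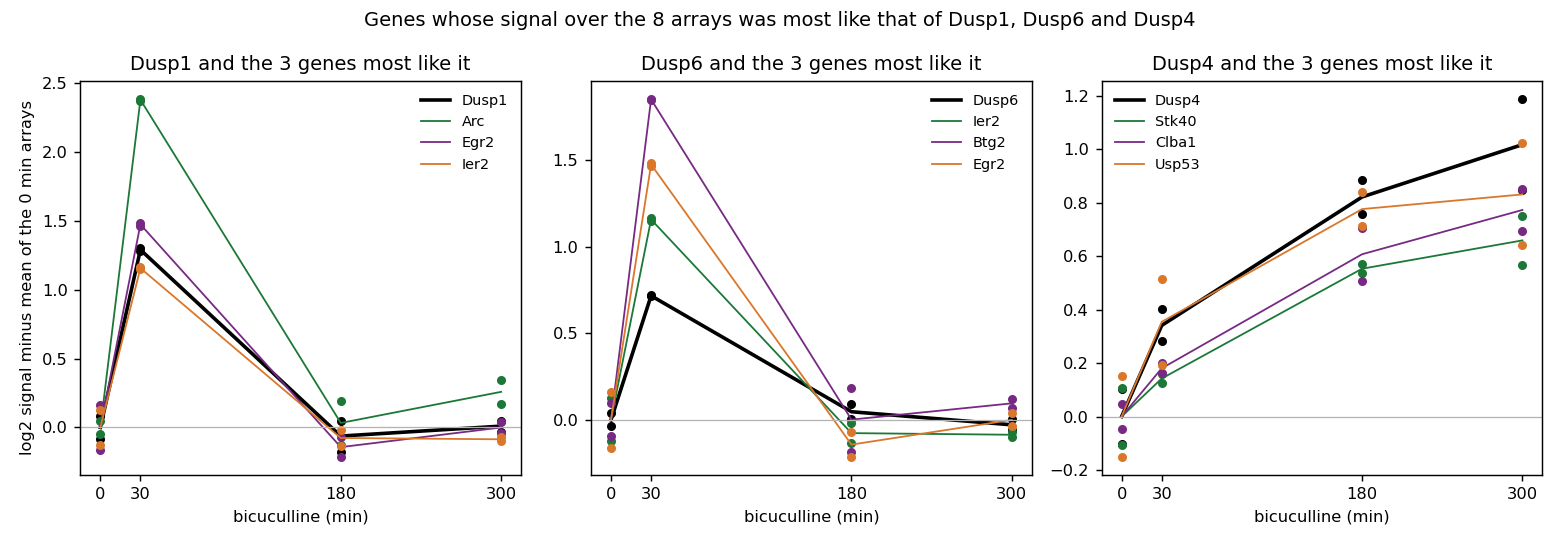
Log2 signal minus the mean of the 0 min arrays (vertical axis) against minutes of bicuculline for Dusp1, Dusp6 and Dusp4 (black) and the 3 genes most like each (colours). Points are arrays and lines join the means of 2 arrays. The first 2 panels show 1 peak at 30 min, of 1.29 for Dusp1 and 0.72 for Dusp6, and the last panel a rise up to 300 min, of 1.02 for Dusp4.

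The promoter sequences of the set were searched for short motifs, since Dusp1 and Dusp6 both rose at 30 min. RefSeq promoter entries of build GRCm38.p6 were found for 9 of the 10 genes, all but Dusp4, which was not searched, and the 250 bases before each start site were searched on both strands. The cAMP response element (CRE), bound by CREB, was searched as TGACGTCA and its core as TGACG, which lies within it. The other motifs were AP-1 (TGANTCA), EGR (GCGNGGGCG) and the CArG box of serum response factor. A full CRE was found in the windows of Dusp1 and Dusp8, and in 1.55% of all 32851 promoter windows. The core was found in 4 of the 9, those of Dusp1, Dusp5, Dusp8 and Dusp16, and in 17.8% of all windows. The CArG box was found in that of Dusp5, which held 2, and in 1.47% of all windows. EGR matched in Dusp2 and Dusp16 and in 4.7% of all windows, and AP-1 in 0 of the 9 and in 6.75%. Shown here, 5′ to 3′ with every match in capitals, are Dusp1 (chr17:26508473-26508722, minus strand) and Dusp6 (chr10:99262981-99263230, plus strand), which both peaked at 30 min, then Dusp8 (chr7:142095285-142095534, minus strand), which shares the full CRE, and Dusp5 (chr19:53528895-53529144, plus strand), which holds the CArG boxes.
Dusp1: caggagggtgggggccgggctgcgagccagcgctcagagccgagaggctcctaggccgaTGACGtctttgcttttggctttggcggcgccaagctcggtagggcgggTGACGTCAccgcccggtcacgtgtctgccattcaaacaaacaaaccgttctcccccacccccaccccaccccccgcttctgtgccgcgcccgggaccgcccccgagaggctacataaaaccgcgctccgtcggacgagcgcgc
Dusp6: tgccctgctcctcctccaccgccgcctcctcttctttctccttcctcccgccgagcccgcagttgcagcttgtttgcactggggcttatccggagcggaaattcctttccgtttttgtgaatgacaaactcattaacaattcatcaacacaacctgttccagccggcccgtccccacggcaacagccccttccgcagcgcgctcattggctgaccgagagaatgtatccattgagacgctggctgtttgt
Dusp8: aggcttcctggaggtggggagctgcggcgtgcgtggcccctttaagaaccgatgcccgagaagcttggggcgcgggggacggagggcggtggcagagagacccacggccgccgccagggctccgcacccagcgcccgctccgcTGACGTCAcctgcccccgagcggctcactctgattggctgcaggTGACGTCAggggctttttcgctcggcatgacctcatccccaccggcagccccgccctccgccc
Dusp5: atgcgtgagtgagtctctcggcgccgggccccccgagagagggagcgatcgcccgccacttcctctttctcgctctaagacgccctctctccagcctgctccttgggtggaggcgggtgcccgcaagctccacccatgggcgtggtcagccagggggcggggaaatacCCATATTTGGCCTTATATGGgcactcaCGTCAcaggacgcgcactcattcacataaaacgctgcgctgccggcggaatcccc

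Dusp1 thus carried a full CRE 143 to 136 bases before its start and a further core 191 to 187 bases before it. Dusp8 carried 2 full CREs, at 107 to 100 and at 63 to 56 bases before its start, and its RNA did not pass at any time. The window of Dusp6, which rose, held none of the motifs searched. Dusp5 held its CArG boxes at 82 to 73 and at 72 to 63 bases before the start, side by side, and its signal at 30 min was the 0.23 above 0 min given above. A match is a description of the letters alone.

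Among the other genes of the MAP kinase pathway, leaving aside the genes ERK induces, Rps6ka5 alone passed. The unadjusted counts of the lists that follow stand against 5.11% of all genes at 30 min, 12.8% at 180 min and 8.96% at 300 min, in either direction. Of 12 measured MAP kinase genes, 0 passed in any comparison, and at an unadjusted p under 0.05 there were 0 at 30 min, 0 at 180 min and 1 higher at 300 min (limma). The 2 with the smallest F test p were Nlk and Mapk15 (changes from 0 min between −0.21 and 0.22). Of 26 measured genes of upstream kinases, Ras and Raf, 0 passed in any comparison, with 0 at 30 min, 1 higher and 7 lower at 180 min and 3 higher and 2 lower at 300 min at an unadjusted p under 0.05. Map3k5, which encodes the stress-activated kinase ASK1, had the smallest F test p (0.66 ± 0.15 SE at 300 min, limma adjusted p = 0.113), followed by the scaffold gene Ksr2. The median of this list at 180 min was −0.15, and −0.07 at 300 min.

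Of 8 measured genes of kinases that MAP kinases activate, 1 fell. Rps6ka5, which encodes MSK1, a kinase of CREB and histone H3 in the nucleus, had signals of 6.76 and 6.67 at 0 min, 6.57 and 6.48 at 30 min, 6.09 and 6.04 at 180 min and 5.87 and 6.06 at 300 min. The late arrays stood below all early ones. Its change was −0.65 ± 0.12 SE at 180 min (limma adjusted p = 0.042) and −0.75 ± 0.12 at 300 min (limma adjusted p = 0.016). The first of these calls ended without any 1 of the 8 arrays (adjusted p up to 0.248) and after quantile normalization (0.0533), with only the 2 times compared (0.0906) and with every row of the table tested (0.309). The second ended without either 0 min array or 300 min replicate 1 (up to 0.174) and with every row tested (0.279). Of 11 other phosphatase genes that act on MAP kinases, 0 passed in any comparison (limma; unadjusted 0 at 30 min, 1 lower at 180 min, 1 higher and 1 lower at 300 min). Ppp2r1b, a PP2A scaffold subunit gene, had a change of 0.42 at 300 min (limma adjusted p = 0.221) and Ptprr, a tyrosine phosphatase gene, of −0.38 (0.332).

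The other 16 dual-specificity phosphatase genes also held 0 that passed (limma; unadjusted 1 lower at 30 min, 1 lower at 180 min and 0 at 300 min). Dusp18 had the smallest F test p, with a change of −0.42 ± 0.12 SE at 180 min (limma adjusted p = 0.190), and Dusp11 came next. Their median change was 0.03, −0.02 and 0.01 at 30, 180 and 300 min.

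Genes known to be induced by ERK signalling held early and late risers. Of 20 measured, 8 were higher at 30 min, 3 at 180 min and 3 at 300 min, against 0.0802%, 0.211% and 0.226% of all genes. From 30 to 180 min 7 were lower and 1 was higher, against 0.171% and 0.331%. The list was chosen with earlier results of these data known. Arc, Egr1, Egr2, Egr4, Fos, Junb and Ier2 were the 7 that rose by 30 min and then fell, and Fos alone of these was still called higher than 0 min at 180 and 300 min. Egr1, for example, was at 6.47 and 6.49 at 0 min, 7.72 and 7.87 at 30 min and 6.10 and 5.81 at 180 min. Fosb rose at 30 min and was still 5.78-fold up at 300 min. Spry2, an inhibitor of receptor tyrosine kinase signalling, was at 7.21 and 7.60 at 0 min, 7.50 and 7.44 at 30 min, 8.22 and 8.45 at 180 min and 8.54 and 8.58 at 300 min. It passed at 180 and 300 min but not at 30 min. With every row tested, Fos, Fosb and Spry2 did not pass at 180 or 300 min (limma adjusted p 0.113 to 0.294). Nor did Egr4 and Junb at 30 min (0.113 and 0.274). The falls of Fos, Egr4 and Junb and the rise of Spry2 from 30 to 180 min were lost there too (0.229 to 0.252). With only the 2 times compared, Spry2 did not pass at 180 min (0.0587). Junb lost its call at 30 min without 0 min replicate 2 or 30 min replicate 1 (adjusted p up to 0.0713). The falls of Fos, Egr4 and Junb and the rise of Spry2 from 30 to 180 min ended without either 30 min array or 180 min replicate 2 (up to 0.182). Spry2 at 180 min lost its call without 0 min replicate 1 or 180 min replicate 2 (up to 0.147), and Fos at 300 min without 0 min replicate 1 (0.0743).

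**Figure D4:**
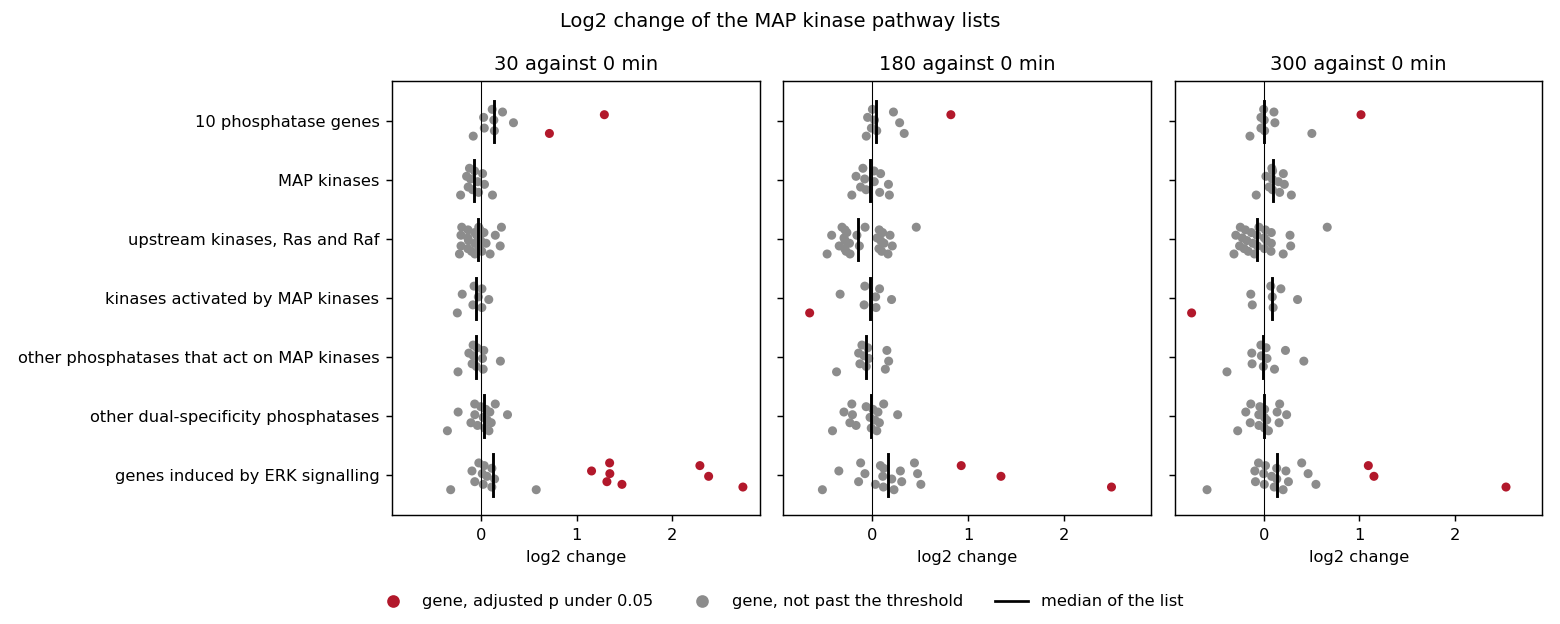
Log2 change from 0 min (horizontal axis) of the 10 phosphatase genes and of the genes of 6 lists of the MAP kinase pathway. Each point is a gene, red where its adjusted p was under 0.05, and black bars are list medians. Red points lie among the phosphatases, the genes induced by ERK and, for Rps6ka5 alone, at −0.65 and −0.75 among the kinases activated by MAP kinases.

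**Figure D5:**
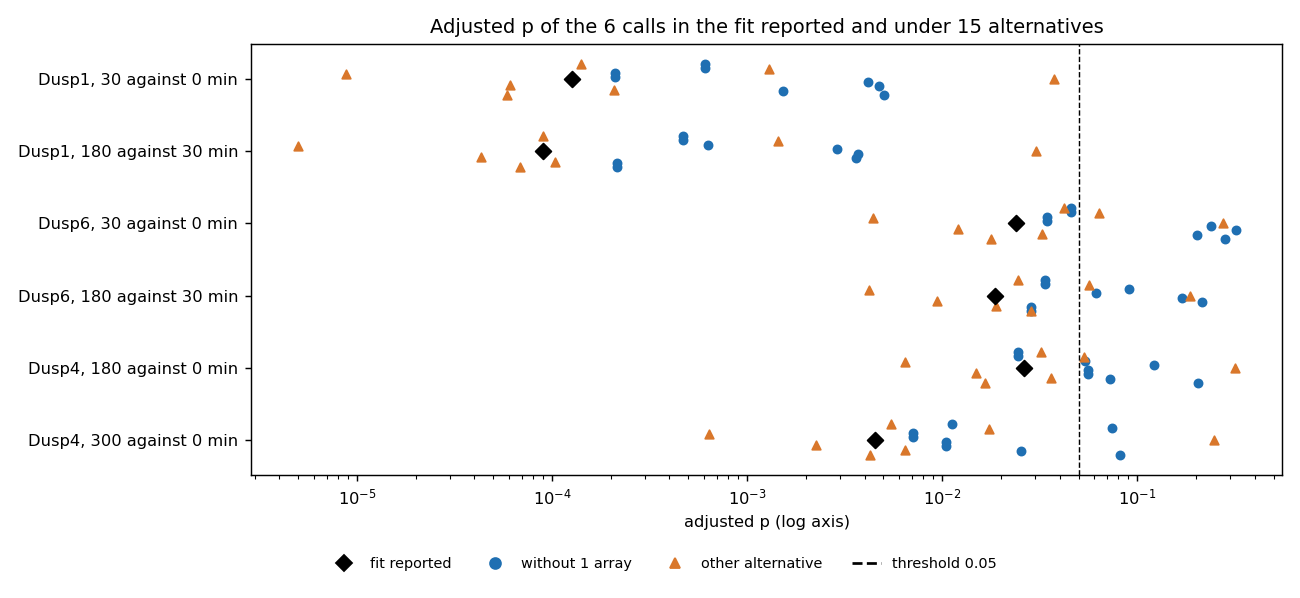
Adjusted p (horizontal log axis) of the 6 results that passed among the 10 genes, in the fit reported (diamonds), in 8 fits without 1 array (circles) and in 7 other alternatives (triangles). All points of Dusp1 lie left of the threshold of 0.05, and points of Dusp6 and Dusp4 lie on both sides of it, up to 0.319.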

How the data were processed

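The authors deposited 1 log2 signal per transcript cluster and array. The log base is not stated, and the range of 1.22 to 14.96 fits base 2. Background correction, probe summary, normalization and genome build are not given in the sources used here, and no further normalization was applied. Background left in dim signals would shrink their fold changes. Per the platform annotation, 21789 of 35399 rows had 1 gene symbol, 1621 several and 11989 none. A gene with several clusters was represented by its brightest one, by mean over all arrays, which left 19938 genes.

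A model with a mean for each time was fitted to all genes and all 8 arrays with limma 3.58.1 in R 4.3.3 (lmFit, eBayes), with 4 residual degrees of freedom. P-values are two-sided and were adjusted by Benjamini-Hochberg over all genes, with a threshold of 0.05. The fit was tested on simulated data. Groups and replicate numbers came from the labels, which do not say whether replicates came from separate dissections, so p-values cover only the spread seen here, which may be technical. Precision is limited by the small number of arrays. SE is the moderated standard error.

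Members and gene lists were chosen with earlier results of these data known. The counts of the 10 members and of the list of genes induced by ERK are therefore no independent support. Named genes were the 10 members, for each member that passed the F test the 3 named genes with the highest correlation over the 8 arrays, and from each pathway list the genes that passed or else the 2 with the smallest F test p. Alternatives were quantile normalization, median centring, leaving out dim genes (means under the olfactory percentile), every row tested, an intensity trend, only the 2 times compared, a replicate block, the other Dusp8 cluster and leaving out each array.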

Additional observations from a re-analysis of the deposited data

How the results depend on the processing

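Dusp1 kept both calls under every alternative, and the 44 uncalled member results kept that status in 665 of 665 fits, with the other sign in 44. The 6 calls kept direction and call in 67 of 90 fits, and no call changed direction. With every row tested, members called numbered 1 at 30 min, 0 at 180 min, 0 at 300 min, 1 from 30 to 180 min and 1 over any time, and all rows called numbered 1 at 180 min, 5 at 300 min, 9 from 30 to 180 min and 13 over any time. With only the 2 times compared, members called were 1 at 30 min, 0 at 180 min and 1 from 30 to 180 min, and genes called were 19 at 180 min and 55 from 30 to 180 min. Genes called were 101 at 180 min and 98 at 300 min with dim genes left out, and 112, 92, 157 (30 to 180 min) and 261 (any time) with an intensity trend. In the reported fit they were 19 at 30 min, 66 at 180 min, 57 at 300 min, 100 from 30 to 180 min, 0 from 180 to 300 min and 162 over any time. Without 1 array, members called ran from 1 to 2 at 30 min, 0 to 1 at 180 and at 300 min, 1 to 2 from 30 to 180 min and 2 to 3 over any time. Genes called ran from 12 (without 0 min replicate 2) to 21 at 30 min, 15 (without 0 min replicate 1) to 68 at 180 min, 17 (same array) to 61 at 300 min, 17 (without 30 min replicate 1) to 93 from 30 to 180 min, 0 to 14 (without 180 min replicate 2) from 180 to 300 min and 49 (without 30 min replicate 1) to 171 over any time. For 180 against 0 min, higher and lower genes numbered 42 and 24 in the reported fit, 48 and 17 after quantile normalization and 31 and 30 with arrays centred on the median.

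The labels tie same-numbered arrays of different times by number alone. Over 6 pairs of times, the deviations of these arrays from the group means correlated between −0.09 and 0.09, 3 of them above 0. These values cannot tell whether same-numbered arrays came from the same culture preparation. With only the 2 times compared, no F test over all times exists. The replicate block left the members called at 2, 1, 1, 2, 0 and 3 and gave 19, 53, 49, 87, 0 and 157 genes called in the same order of comparisons. No member call changed with the block. Of the other genes named, Rps6ka5 at 180 min (adjusted p = 0.0516) and Stk40 (0.0539) and Usp53 (0.0535) at 300 min no longer passed with it.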
